A study of Mus musculus with 2 samples.

Results

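The genes described here are 9 components and regulators of the complement system, C3, C4b, Cfb, Cfi, C1s1, C1ra, Serping1, Cd59a and Cd55, out of 32285 genes counted. They were chosen by name, and all 9 were found in the count files. Their levels were measured by single-cell RNA sequencing in cells of the retinal pigment epithelium (RPE), choroid and sclera of male C57BL/6J mice, 3 months of age, 7 days after a subretinal injection. Control RPE mice received 1 µl of PBS and Dox-RPE mice 1 µl of doxorubicin (Dox), a drug that damages DNA, at a concentration of 100 ng/µl. Each condition had 1 library, a pool of 10 eyes taken from 5 mice. No test between the conditions was therefore made, and the treatment, the library and the pooled mice cannot be told apart.

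The complement system is a cascade of blood and tissue proteins that marks and lyses cells. The classical pathway starts when C1q binds a surface and activates the proteases C1r and C1s, which cut C4 and C2, and the alternative pathway runs through factor B. Both lead to the cutting of C3. Inhibitors hold the cascade back, such as C1 inhibitor (Serping1), factor I (Cfi) and the membrane proteins Cd55 and Cd59. In the eye, the RPE lies next to the blood vessels of the choroid, and variants of complement genes are linked to age-related macular degeneration in people.

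A value of a gene is its number of unique molecular identifiers (UMIs, each marking 1 RNA molecule) in a group of cells, scaled to counts per 1e6 UMIs of the group (CPM). Intervals are 95% intervals that cover counting error and nothing else. They are exact Poisson intervals for levels, exact conditional binomial intervals for ratios and Clopper-Pearson intervals for shares. A gene counted as higher or lower when its CPM differed by at least 2-fold (a log2 ratio of at least 1 or at most -1), with at least 50 UMIs over both groups and at least 20 CPM in one of them. The control library held 20381 cells and the Dox library 15649, of which 20180 and 15426 were kept, with medians of 4495 and 4995 UMIs. The libraries shared 441 cell barcodes. RPE cells were kept cells with at least 10 UMIs of Rpe65, the retinoid isomerase that marks the RPE, and numbered 1526 in control RPE and 1630 in Dox-RPE. Of the 10 RPE markers, 8 were at 10 CPM or more in both, and the 8 markers of rod photoreceptors summed to at most 2.31 CPM. RPE cells were split at 1000 CPM of Serpina3n, an inhibitor of proteases that rises in stressed and inflamed cells. Those below the limit numbered 1511 in control RPE and 1422 in Dox-RPE and are called Serpina3n-low, and those at or above it 15 and 208 and are called Serpina3n-high. All kept cells were clustered without the complement genes, and the other cells are named by their cluster, from its markers. The RPE-like cluster held 1349 of the 1526 RPE cells of control and 1404 of the 1630 of Dox-RPE, and the rest lay in other clusters. Of the RPE cells, 22.4% in control RPE and 14.2% in Dox-RPE carried at least 2000 CPM of fibroblast markers.

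C4b (ENSMUSG00000073418, chromosome 17 from 34728380 to 34743882, minus strand) encodes complement C4, and its neighbour C4a is a near-identical copy. The first 60 coding bases of both transcripts are shown because they lie near the end of the RNA that this 5′ assay reads. Capitals mark the 1 base that differs, in GENCODE vM21 transcripts of GRCm38.
C4b: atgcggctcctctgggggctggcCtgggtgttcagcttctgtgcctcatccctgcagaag
C4a: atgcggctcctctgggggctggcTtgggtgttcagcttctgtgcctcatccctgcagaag

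Of the windows of 100 bases within the first 500 bases of the C4b transcript, 24.7% were also found in C4a, so that some reads cannot be given to one of them. Counts for C4a itself were close to 0. C4a had 0 UMIs in Serpina3n-high cells of either library, 0 in Serpina3n-low control RPE cells and 9 in Serpina3n-low Dox-RPE cells. Shared windows were also found for Cd55 with Cd55b (24.7%), C1s1 with C1s2 (9.98%) and C1ra with C1rb (2.74%), and none for the other 5 genes. In the RPE groups Cd55b, C1s2 and C1rb had 0 UMIs.

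Over all RPE cells, C4b was higher in Dox-RPE than in control RPE. It had 220 UMIs in control RPE, or 8.36 CPM (7.29 to 9.54), and 767 UMIs in Dox-RPE, or 24.6 CPM (22.9 to 26.4). Dox over control gave a log2 ratio of 1.56 (1.34 to 1.78), a 2.94-fold difference. C4b was the 1 member at least 2-fold higher among the 3 that passed the limits on low counts, against 0.358% of 5306 genes that were at least 2-fold higher. None of the 3 was at least 2-fold lower, against 0.433% of the genes. With the limits raised to 100 UMIs and 50 CPM, C4b was no longer counted.

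The higher level in Dox-RPE lay in the Serpina3n-high cells. The authors state that injected Dox reached only part of the RPE, so Serpina3n-low Dox-RPE cells may include cells that the drug did not reach. The part of this in the C4b levels was not tested. In Serpina3n-low cells C4b was at 7.77 CPM in control RPE (6.73 to 8.92) and 7.33 CPM in Dox-RPE (6.32 to 8.46), a log2 ratio of -0.08 (-0.38 to 0.21). In Serpina3n-high cells it was at 42 CPM in control RPE (25.3 to 65.5) and 104 CPM in Dox-RPE (95.7 to 113). These 208 Dox-RPE cells held 579 of the 767 C4b UMIs of RPE cells, and 25.1% (23.4 to 26.9) of the C4b UMIs of the whole Dox library, while they held 5.61% of all its UMIs.

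Within the Dox library, C4b was 14.2-fold higher in Serpina3n-high than in Serpina3n-low cells, a log2 ratio of 3.83 (3.59 to 4.07). Within the control library the log2 ratio was 2.43 (1.67 to 3.11), from 19 UMIs in 15 cells. Between the libraries, C4b in Serpina3n-high cells differed by a log2 ratio of 1.31 (0.65 to 2.05). Serpina3n-high Dox-RPE cells also held more Serpina3n themselves, at 6343 CPM against 2880 CPM in control RPE. With the limit set at 2000 CPM of Serpina3n, the C4b ratio between the libraries fell below 2-fold, to 0.63.

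**Figure D1:**
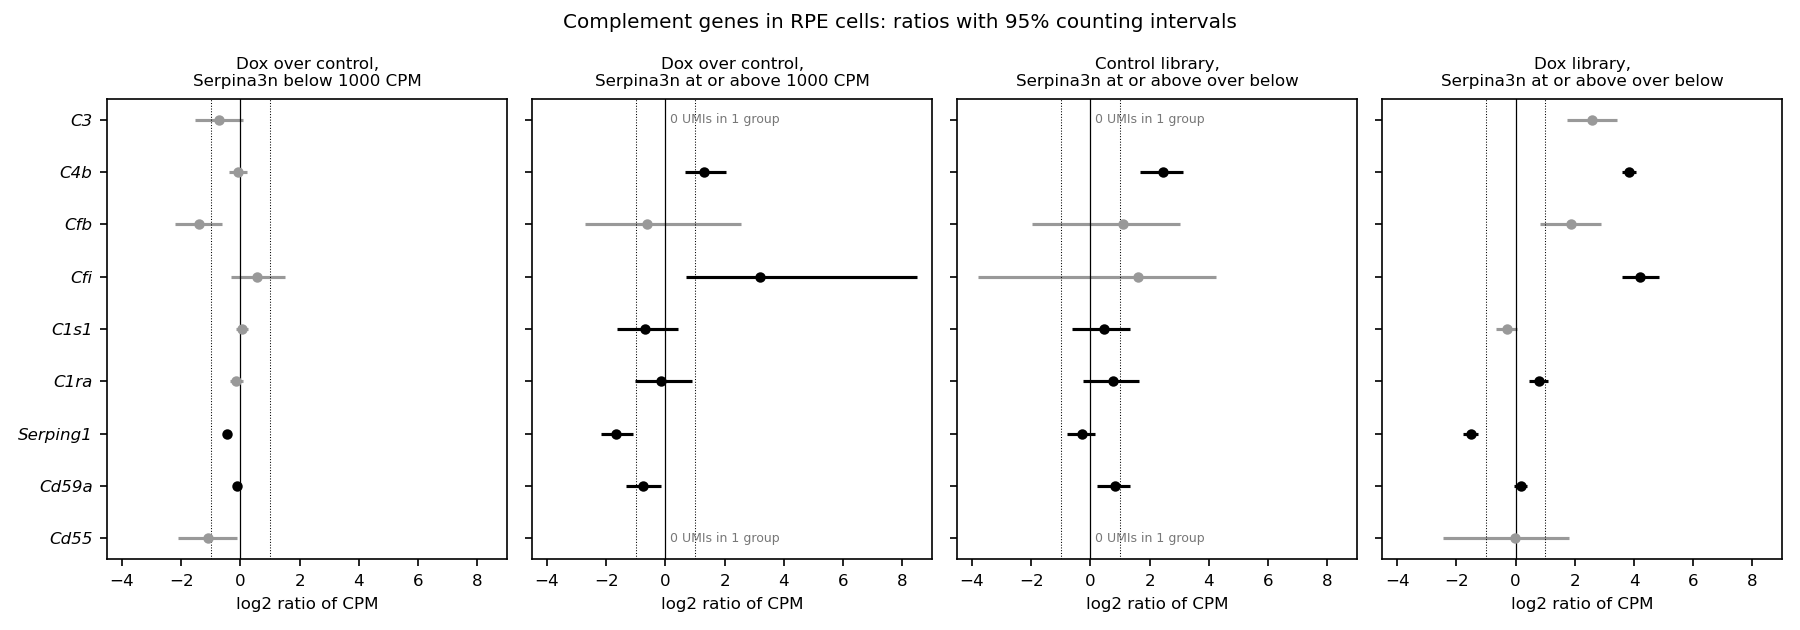
Log2 ratios of CPM (x axis) of the 9 complement genes (y axis) in RPE cells, with 95% counting intervals, for Dox over control in Serpina3n-low and Serpina3n-high cells and for Serpina3n-high over Serpina3n-low cells in each library. Black points passed the limits on low counts, grey points did not, and dotted lines mark 2-fold. C4b stood at -0.08 in the first panel and at 1.31, 2.43 and 3.83 in the others, and Serping1 lay to the left in the Dox library, at -1.51.

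Cfi (ENSMUSG00000058952, chromosome 3 from 129835884 to 129875332, plus strand) encodes factor I, the protease that inactivates C3b and C4b. It was measured at low levels everywhere except in Serpina3n-high Dox-RPE cells. There it had 112 UMIs, or 20.1 CPM (16.6 to 24.2), against 28 UMIs in Serpina3n-low Dox-RPE cells, or 1.09 CPM (0.73 to 1.58). The log2 ratio was 4.2 (3.60 to 4.86), an 18.4-fold difference. In control RPE it had 1 UMI in Serpina3n-high cells (2.21 CPM, 0.056 to 12.3) and 19 UMIs in Serpina3n-low cells (0.735 CPM, 0.442 to 1.15).

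Of the 170 Cfi UMIs in the Dox library, 65.9% (58.2 to 73.0) lay in the Serpina3n-high RPE cells. Fibroblast-like cells led by Myoc held 13 UMIs (0.265 CPM), and macrophage-like, NK or T-like, endothelial-like and Schwann-like cells held 0 UMIs in this library. For NK or T-like cells, the interval at 0 UMIs reached up to 2.86 CPM. For the few Schwann-like cells it reached up to 32.3 CPM, above the level in Serpina3n-high RPE cells, so their order was not set. Over all RPE cells Cfi was at 0.76 CPM in control RPE and 4.49 CPM in Dox-RPE, a log2 ratio of 2.56 (1.88 to 3.32), with both levels under the limit of 20 CPM. The level of 20.1 CPM in Serpina3n-high cells lay just above that limit, and several alternative settings put it below.

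In Serpina3n-high cells, Dox over control, 6 of the 9 genes passed the limits. C4b and Cfi were at least 2-fold higher, against 4.84% of 5252 genes, and Serping1 was at least 2-fold lower, against 3.98%. The Cfi ratio of 3.19 (0.68 to 8.5) rested on 1 control UMI. Cfi passed the limit of 20 CPM only through the Dox-RPE cells, where it was high, so that its count among the calls is a description. Of Serpina3n-high over Serpina3n-low cells in the Dox library, 5 of the 9 passed the limits, with C4b and Cfi higher against 2.30% of 5395 genes and Serping1 lower against 3.93%. Here C4b and Cfi both passed the limit only through the Serpina3n-high cells, as C4b did through Dox-RPE over all RPE cells, and nothing is read from their counts against these shares. In the control library C4b was higher against 2.79% of 5515 genes, and no member of the 5 that passed the limits was lower, against 7.11%. There too C4b passed the limit only through the Serpina3n-high cells, and nothing is read from its count. In Serpina3n-low cells, Dox over control, neither of the 2 genes that passed was called, against 0.0375% of genes higher and 0.432% lower.

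The levels followed Serpina3n in steps and not only at the limit of 1000 CPM, in 7 ranges chosen after the data had been seen. In Dox-RPE cells without a Serpina3n UMI (780 cells), C4b was at 3.55 CPM (2.62 to 4.70) and Cfi at 0.665 CPM. From 100 to under 500 CPM of Serpina3n, C4b was at 18.4 CPM (13.8 to 24.1), and from 500 to under 1000 CPM (57 cells) at 44.0 CPM (31.4 to 59.8). From 1000 to under 2000 CPM (37 cells) it was at 69.7 CPM (52.0 to 91.4). In the 2 highest ranges, both above 2000 CPM, it was at 110.1 and 109 CPM, with intervals that overlap. Cfi was at 8.79 CPM (3.79 to 17.3) from 500 to under 1000 CPM and at 24.5 CPM (19.3 to 30.7) in the highest range. The ranges also differed in depth and in fibroblast RNA. Median UMIs were 8349 from 100 to under 500 CPM and 9862 from 500 to under 1000 CPM. They were 15749.5 without a Serpina3n UMI and 29406.5 in the highest range. In the same order, the fibroblast markers summed to 2755, 824, 926 and 484 CPM. Their part in these steps was not tested.

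In control RPE, C4b was at 6.01 CPM (5.02 to 7.15) in cells without a Serpina3n UMI and at 32.4 CPM (17.7 to 54.4) in the 20 cells from 500 to under 1000 CPM. The interval of this last value overlapped that of Dox-RPE cells in the same range. At equal ranges of Serpina3n the libraries were thus apart for C4b from 1000 to under 2000 CPM, where the 7 control cells were at 16.6 CPM (4.53 to 42.6), and their intervals overlapped in the 2 higher ranges and from 100 to under 1000 CPM. Below 100 CPM the order was turned. Control RPE was above Dox-RPE in cells without a Serpina3n UMI, and also in cells with less than 100 CPM, at 11.5 CPM (7.71 to 16.5) against 5.66 CPM (4.16 to 7.52). The 12 fibroblast markers were higher in control RPE in the same cells. They summed to 1430 CPM against 926 CPM in Dox-RPE without a Serpina3n UMI, and to 2187 CPM against 815 CPM in the next range. The part of RNA from other cells in this order was not tested.

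**Figure D2:**
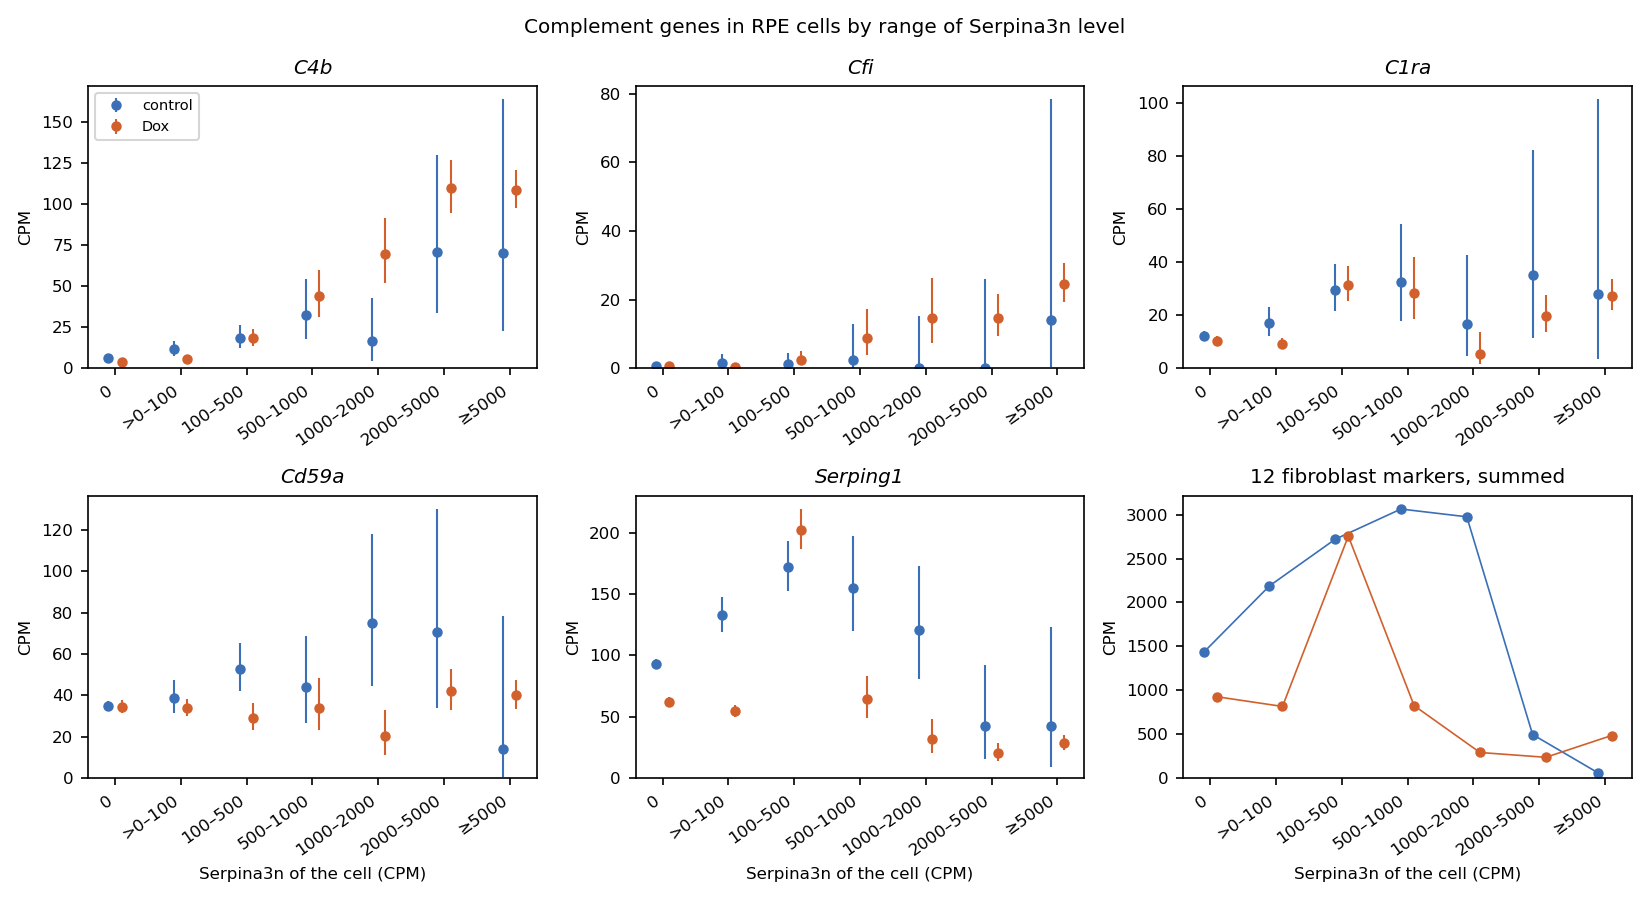
CPM (y axis, linear from 0) of C4b, Cfi, C1ra, Cd59a and Serping1, and of 12 fibroblast markers summed, in RPE cells by range of Serpina3n level (x axis, CPM). Points are each library's summed cells and bars are 95% Poisson intervals, the marker sum having none. In Dox-RPE, C4b went from 3.55 CPM without Serpina3n to 109 CPM in the highest range, whereas Serping1 had its highest value, 203 CPM, in the range where the fibroblast markers were also highest.

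C4b RNA was spread over many Serpina3n-high cells. In Dox-RPE 147 of the 208 cells had at least 1 C4b UMI (70.7%, 64.0 to 76.8), and the 10 cells with most UMIs held 22.3% of the C4b UMIs. Cfi was found in 71 of the 208 cells (34.1%, 27.7 to 41.0). The Serpina3n-low cells had C4b in 9.14% and Cfi in 1.62% of cells, at a median of 16608 UMIs against 28244 in Serpina3n-high cells. With each cell thinned to 2000 UMIs, which left out 3 Serpina3n-high and 38 Serpina3n-low cells, the shares were 16.6% (11.8 to 22.4) and 1.59% (0.999 to 2.40) for C4b, and 2.93% (1.08 to 6.26) and 0.289% (0.0788 to 0.738) for Cfi. The thinned share in NK or T-like cells, which should lack both genes, was 0.413% (0.0105 to 2.28) for C4b, and 0 of 242 cells for Cfi, with an upper bound of 1.51%. The C4b share of Serpina3n-low cells overlapped that background, as did the Cfi shares of Serpina3n-high and Serpina3n-low cells. Among Serpina3n-high cells, Cfi was found in 54 of the 147 cells with C4b (36.7%) and in 27.9% of those without.

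RNA of other cell types was set beside these levels. The 12 fibroblast markers summed to 382 CPM in Serpina3n-high Dox-RPE cells, with 11 of 12 having a UMI and Dpt at 0, and to 1092, 1612 and 1743 CPM in Serpina3n-low Dox-RPE, Serpina3n-low control RPE and Serpina3n-high control RPE cells. The ratio of C4b to these markers was taken from fibroblast-like cells led by Myoc. At that ratio the C4b level in Serpina3n-high Dox-RPE cells would have been 0.364 CPM, against 104 measured. The 10 melanocyte markers, all with a UMI, summed to 3697 CPM in Serpina3n-high and 1953 CPM in Serpina3n-low Dox-RPE cells, and to 6104 and 3081 CPM in the control cells, with Gpnmb the highest of them in Serpina3n-high cells. Within each library the sums were higher where C4b was higher, and most of that difference was Gpnmb. The authors list Gpnmb as a marker of an RPE cluster in control and in Dox cells. Between the libraries the sums were higher in control, also in Serpina3n-high cells, where C4b was at 42 CPM in control against 104 in Dox. Single markers also differed. In Serpina3n-high and Serpina3n-low Dox-RPE cells Gpnmb was at 1895 and 241 CPM and Mlana at 312 and 138 CPM. Pmel was at 44.9 and 67.8 CPM, Ednrb at 8.62 and 11.6, Sox10 at 53.2 and 72.5 and Kit at 4.31 and 7.88. Melanocyte-like cells hold C4b at 86.5 CPM in Dox. At their ratio of C4b to Ednrb and Pmel, its level in Serpina3n-high Dox-RPE cells would have been 0.598 CPM. Ednrb and Pmel are only some of the 10 markers, and both were lower in Serpina3n-high than in Serpina3n-low Dox-RPE cells. In melanocyte-like Dox cells Gpnmb was at 2437 CPM, Mlana at 4744, Sox10 at 185 and Kit at 34.0, and each would give a higher level. The part of fibroblast RNA or melanocyte RNA in the C4b level was not tested. The 12 macrophage markers summed to 111 CPM, with Adgre1 and Mrc1 at 0. Without the RPE cells at or above 2000 CPM of fibroblast markers, the log2 ratio of C4b in Serpina3n-high over Serpina3n-low Dox-RPE cells was 3.94.

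C3 (ENSMUSG00000024164, chromosome 17 from 57203970 to 57228136, minus strand) is cut in every pathway of complement. In RPE cells its counts were low. It had 38 UMIs in Serpina3n-low control RPE cells (1.47 CPM, 1.04 to 2.02), 0 UMIs in Serpina3n-high ones, 23 UMIs in Serpina3n-low Dox-RPE cells (0.897 CPM, 0.569 to 1.35) and 30 UMIs in Serpina3n-high ones (5.39 CPM, 3.64 to 7.69). Within the Dox library the log2 ratio of Serpina3n-high over Serpina3n-low cells was 2.59 (1.75 to 3.44), under the limits on low counts. For the 15 Serpina3n-high control cells the interval at 0 UMIs reached up to 8.15 CPM, so that a difference from Dox-RPE was not detectable at this depth.

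Cfb (ENSMUSG00000090231, chromosome 17 from 34856374 to 34862518, minus strand) encodes factor B, the protease of the alternative pathway, and overlaps Gm20547 on the same strand in the annotation. It had 53 and 2 UMIs in Serpina3n-low and Serpina3n-high control RPE cells and 20 and 16 in the Dox-RPE cells, or 2.05, 4.42, 0.78 and 2.87 CPM. Within the Dox library its log2 ratio was 1.88 (0.84 to 2.90), also under the limits, and 7 of the 16 UMIs lay in 1 cell. C4b, Cfi, C3 and Cfb thus all had higher values in Serpina3n-high than in Serpina3n-low Dox-RPE cells, the last 2 on few counts.

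The promoter of C3 is shown because C3 is the only one of these 4 with an entry in the RefSeq promoter table, C4b, Cfb, Cfi and Serping1 having none. The 250 bases before the start of C3, at chr17:57228137-57228386 on the minus strand of GRCm38.p6, carry in capitals the 1 match to TTGCNNAA, the core of sites for C/EBP factors. Of 27025 promoters, 9.55% hold such a match on either strand.
C3 promoter: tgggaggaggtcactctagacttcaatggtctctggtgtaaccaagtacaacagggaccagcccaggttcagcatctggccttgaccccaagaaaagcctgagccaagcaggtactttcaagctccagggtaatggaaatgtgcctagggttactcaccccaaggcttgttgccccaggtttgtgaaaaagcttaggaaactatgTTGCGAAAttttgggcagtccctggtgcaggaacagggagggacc

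Of the 5 genes with a promoter entry (C3, C1s1, C1ra, Cd59a and Cd55), C1s1 also held 1 match to TTGCNNAA. TTCNNNGAA, the letters of sites bound by STAT factors, was found in none of the 5 windows, and 7.18% of all promoters hold it. The letters of sites bound by interferon regulatory factors, searched as 2 copies of GAAA with any 2 bases between them, were found once in the window of Cd59a and in none of the other 4, and 3.04% of all promoters hold them. Both strands were searched.

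C1s1 (ENSMUSG00000038521, chromosome 6 from 124530345 to 124542359, minus strand) and C1ra (ENSMUSG00000055172, chromosome 6 from 124512405 to 124523443, plus strand) encode the proteases of the first step of the classical pathway. Both were mainly in fibroblast-like cells. In fibroblast-like cells led by Myoc, C1s1 was at 210 (control) and 216 CPM (Dox), and C1ra at 144 and 150.2 CPM. In Serpina3n-low RPE cells C1s1 was at 16.2 CPM in control RPE and 16.8 CPM in Dox-RPE, and in Serpina3n-high cells at 22.1 CPM (10.6 to 40.6) and 13.7 CPM (10.8 to 17.1). C1ra was at 14.2 and 12.9 CPM in Serpina3n-low cells, and at 24.3 CPM (12.1 to 43.5) and 22.1 CPM (18.4 to 26.4) in Serpina3n-high cells.

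Within the Dox library C1ra had a log2 ratio of 0.78 (0.47 to 1.08) of Serpina3n-high over Serpina3n-low cells, under 2-fold. Without the cells at or above 2000 CPM of fibroblast markers it was 1.70, and with at least 5 Rpe65 UMIs as the limit for RPE cells it was -0.15. C1ra in Serpina3n-high Dox-RPE cells stood at 7.52 times the level given by their fibroblast marker UMIs, and C1s1 at 3.24 times. In Serpina3n-low cells C1ra stood at 1.25 (control) and 1.53 times (Dox). C1s1 stood there at 0.984 (log2 -0.17 to 0.12) and 1.39 times. In Serpina3n-high control cells C1ra was at 1.98 times (log2 -0.02 to 1.83) and C1s1 at 1.24 times (log2 -0.75 to 1.19).

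Serping1 (ENSMUSG00000023224, chromosome 2 from 84765387 to 84775444, minus strand) encodes the inhibitor of C1r and C1s. It was at 103 CPM (98.9 to 107) in Serpina3n-low control RPE cells and 75.5 CPM (72.2 to 79.0) in Serpina3n-low Dox-RPE cells, a log2 ratio of -0.44 (-0.53 to -0.36). In Serpina3n-high cells it was at 83.9 CPM (59.4 to 115) and 26.6 CPM (22.5 to 31.2), a log2 ratio of -1.66 (-2.18 to -1.10). Of the 38 control UMIs in this last group, 24 lay in 1 cell. Without that cell, left out after the data had been seen, the ratio was -0.28.

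Serping1 moved with the fibroblast markers. In fibroblast-like cells led by Myoc it had 62.8 UMIs per 1000 fibroblast marker UMIs in control and 70.7 in Dox. In Serpina3n-low RPE cells there were 63.7 and 69.2, and in Serpina3n-high cells 48.2 and 69.7. Its measured level was thus 1.01 times the level given by the fibroblast markers in Serpina3n-low control RPE cells (log2 0.02, -0.04 to 0.08), 0.978 times in Serpina3n-low Dox-RPE cells (log2 -0.03, -0.10 to 0.03), 0.986 times in Serpina3n-high Dox-RPE cells (log2 -0.02, -0.26 to 0.21) and 0.766 times in Serpina3n-high control RPE cells (log2 -0.38, -0.88 to 0.07). Each of these intervals includes 0. Among RPE cells below 2000 CPM of fibroblast markers, Serping1 had a log2 ratio of 0.20 in Serpina3n-high over Serpina3n-low Dox-RPE cells, in place of -1.51 (-1.76 to -1.26). The authors list Serping1 as a marker of an RPE cluster and show its RNA by in situ hybridization on RPE flatmounts. The part of fibroblast RNA in the Serping1 level of RPE cells was not tested.

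**Figure D3:**
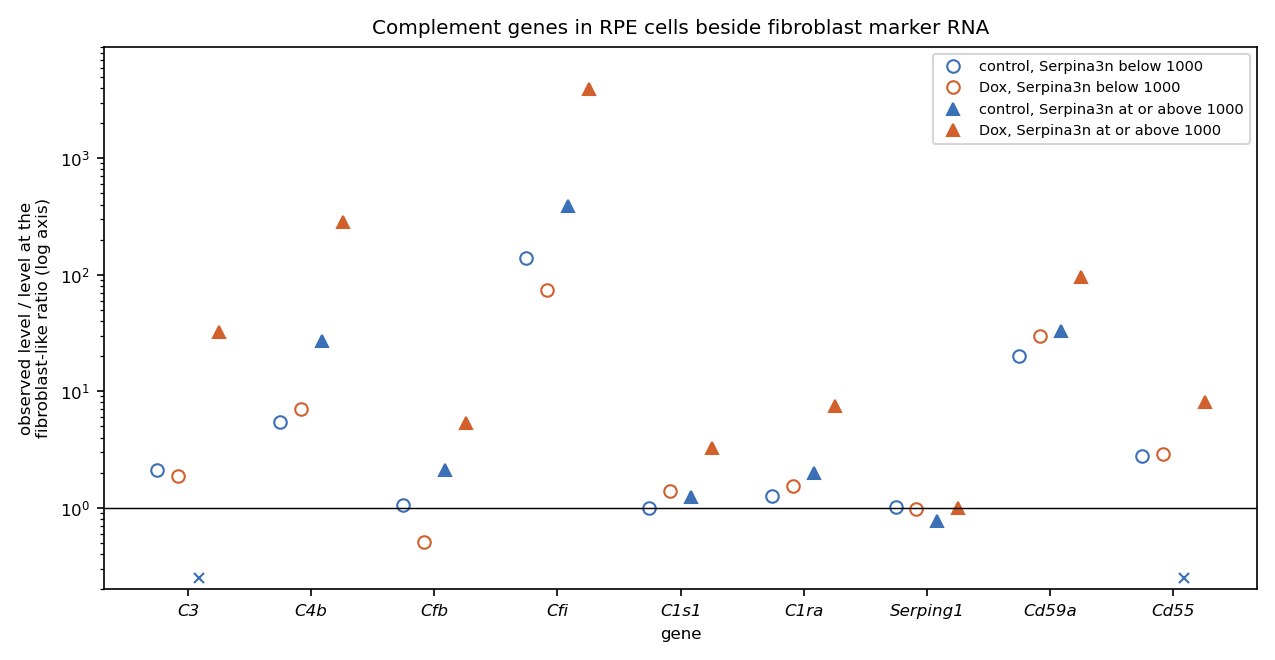
Measured level of each complement gene (x axis) in RPE cells, divided by the level that the cells' fibroblast marker UMIs would give at the ratio found in fibroblast-like cells led by Myoc of the same library (y axis, log scale). Circles are Serpina3n-low and triangles Serpina3n-high cells, blue is control and orange Dox, and crosses mark 0 UMIs. Serping1 lay between 0.766 and 1.01, while C4b and Cfi in Serpina3n-high Dox-RPE cells stood at 286 and 3888, the last against 13 Cfi UMIs in the fibroblast-like cells. In Serpina3n-low control RPE cells C1s1 stood at 0.984 and Cfb at 1.05.

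Cd59a (ENSMUSG00000032679, chromosome 2 from 104095801 to 104115354, plus strand) encodes the membrane protein that blocks the lytic pore of complement. It was at 36.4 CPM (34.1 to 38.8) in Serpina3n-low control RPE cells and 33.6 CPM (31.4 to 35.9) in Serpina3n-low Dox-RPE cells, a log2 ratio of -0.11 (-0.25 to 0.02). In Serpina3n-high cells it was at 64.0 CPM (42.9 to 92.0) and 37.9 CPM (33.0 to 43.4). Its ratios in RPE cells were under 2-fold. With the highest doublet scores left out, the log2 ratio reached -1.07 in Serpina3n-high cells, Dox over control, and 1.10 in Serpina3n-high over Serpina3n-low control cells, and with thinned cells the first was -1.19, under the limits on low counts. In Serpina3n-low RPE cells, the levels of Cd59a were above those in NK or T-like cells in both libraries (17.2 CPM, 12 to 23.9, and 5.43 CPM, 2.18 to 11.2).

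For the other 8 genes, the level in Serpina3n-low RPE cells was not above that in NK or T-like cells beyond counting error in either library. C4b for example was at 10.8 CPM (6.77 to 16.4) and 6.20 CPM (2.68 to 12.2) in NK or T-like cells. Their median depth was 3811 and 4033.5 UMIs, against 15957 and 16608 in Serpina3n-low RPE cells. For Cfi they had 0 UMIs, with intervals up to 1.81 and 2.86 CPM, above its levels in Serpina3n-low RPE cells. Those levels, 0.735 and 1.09 CPM, lay above the Myoc-led fibroblast-like cells. There Cfi was at 0.067 CPM (0.018 to 0.172) in control and 0.265 CPM (0.141 to 0.453) in Dox, with no overlap. Cd55 (ENSMUSG00000026399, chromosome 1 from 130439027 to 130462744, minus strand), which speeds the decay of the convertases, had 30 and 0 UMIs in Serpina3n-low and Serpina3n-high control RPE cells and 14 and 3 in the Dox-RPE cells, or at most 1.16 CPM.

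Outside the RPE, 6 of the 9 genes had their highest level in a small group of fibroblast-like cells led by Sfrp4, with 111 control and 68 Dox cells. There Serping1 was at 2656 (control) and 2616 CPM (Dox). C3 was at 195 CPM (165 to 229) and 139 CPM (108 to 176), against 8.79 and 8.63 CPM in the fibroblast-like cells led by Myoc. Macrophage-like cells came next for C3, with 25.6 and 28.8 CPM, and did not overlap the Sfrp4-led cells. Cfb was at 162 CPM (135 to 193) and 96.8 CPM (71.4 to 128) in Sfrp4-led cells, followed by endothelial-like cells with 27.2 and 37.0 CPM. Cd55 was at 98.8 CPM (77.7 to 124) and 178 CPM (142 to 219), and the next cells, melanocyte-like in control and NK or T-like in Dox, were at 22.8 and 21.7 CPM.

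C1s1 was at 255 and 222 CPM and C1ra at 296 and 222 CPM in the Sfrp4-led cells. For C1s1 in Dox the interval of 182 to 267 CPM overlapped that of the Myoc-led cells, so that the order of these neighbours was not set. A cluster led by Cxcl10 and Cxcl9, genes that interferon induces, had no cell type name. It carried 16384 and 16019 CPM of fibroblast markers and had C1s1 at 196 and 212 CPM and Serping1 at 1081 and 1175 CPM.

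Cd59a and C4b had another order. Cd59a was at 657 CPM (531 to 803) in Schwann-like cells of control and 813 CPM (656 to 996) of Dox, from 48 and 32 cells. Melanocyte-like cells followed with 152 and 117 CPM, and endothelial-like cells with 90.9 and 100.3 CPM, the last 2 overlapping in Dox. C4b was at 118 CPM (68.5 to 188) and 105 CPM (54.2 to 183) in Schwann-like cells and at 77.6 and 86.5 CPM in melanocyte-like cells. In Dox the Serpina3n-high RPE cells, at 104 CPM, stood second in this order, and their interval overlapped those of both neighbours. In control they stood at 42 CPM. The melanocyte-like cells of Dox also carried RPE markers, which summed to 28698 CPM, beside melanocyte markers at 28696 CPM. The part of RPE RNA in their C4b level was not tested.

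**Figure D4:**
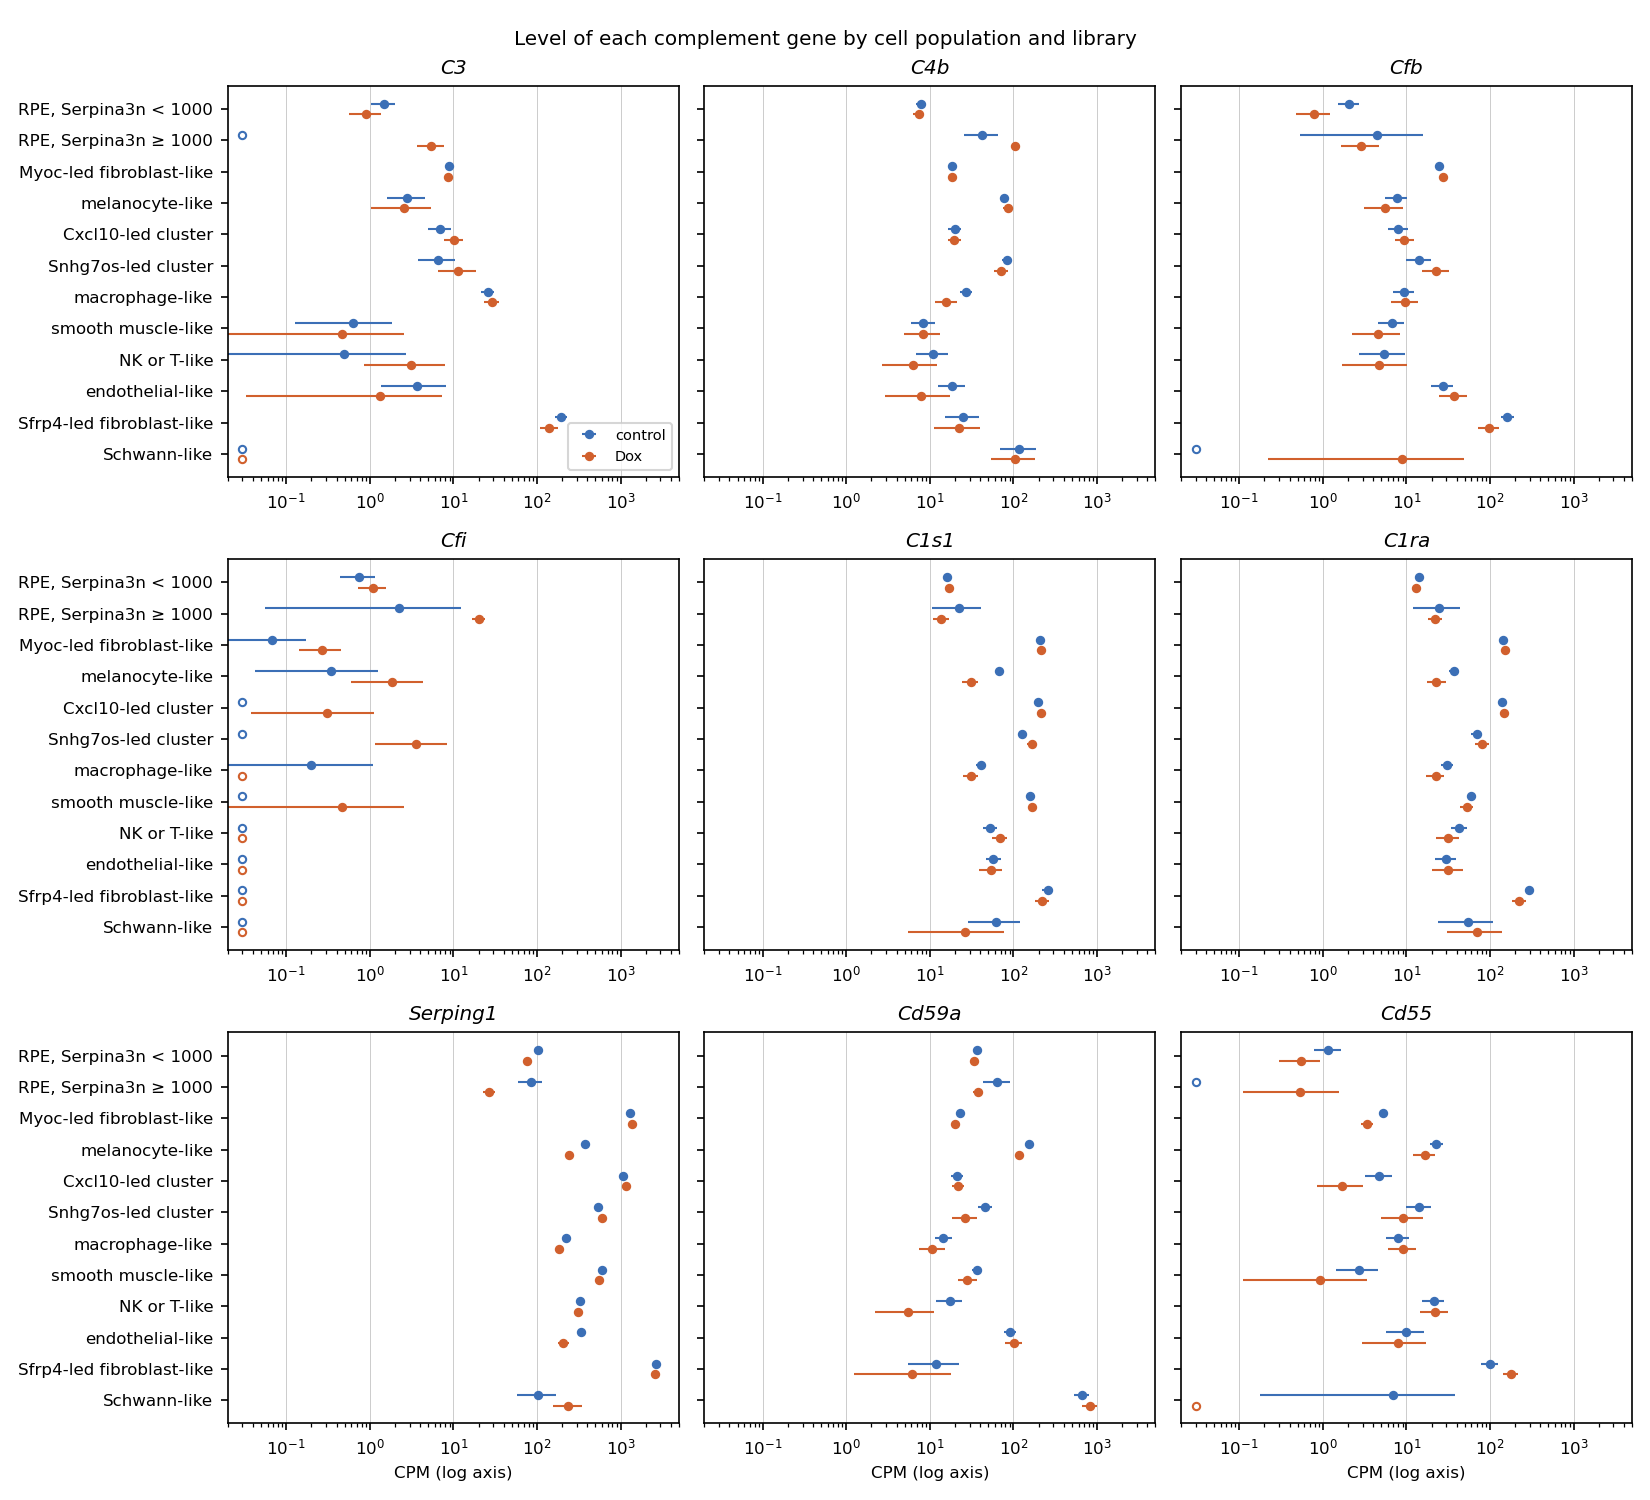
CPM (x axis, log scale) of each of the 9 complement genes by cell population (y axis), for control (blue) and Dox (orange), with 95% Poisson intervals. Open circles at the left edge mark 0 UMIs. Cfi was measured above 10 CPM only in Serpina3n-high Dox-RPE cells (20.1 CPM). In Schwann-like cells it had 0 UMIs, with intervals up to 25.5 (control) and 32.3 CPM (Dox). Serping1 was highest in the Sfrp4-led fibroblast-like cells (2656 and 2616 CPM).

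Outside the RPE, 1 call was made among the 9 genes between the libraries. In fibroblast-like cells led by Myoc, 5 of the 9 genes passed the limits and none was called, against 0.0503% of 5970 genes higher and 0.369% lower. No gene of the 9 was called in the other 8 populations. Of the 9, the limits were passed by 4 in the Cxcl10-led cluster (0.0335% of genes higher and 0.486% lower), 6 in the Snhg7os-led cluster, which has no cell type name (1.49% and 1.19%), 5 in macrophage-like (0.303% and 0.808%) and 4 in smooth muscle-like cells (0.173% and 0.724%). There were 4 in NK or T-like (0.55% and 1.88%), 5 in endothelial-like (0.392% and 1.29%), 6 in Sfrp4-led fibroblast-like (1.47% and 1.9%) and 1, Cd59a, in Schwann-like cells (1.69% and 2.05%). The single call was C1s1 in melanocyte-like cells, in which control had 67.7 CPM (61.1 to 74.8) and Dox 30.7 CPM (24.4 to 38.0), a log2 ratio of -1.14 (-1.5 to -0.80), against 1.04% of 6663 genes at least 2-fold lower there. The fibroblast markers summed to 5022 (control) and 2702 CPM (Dox) in the same cells, and their part in this result was not tested. Cells were shallow in this cluster, with medians of 1164 and 761.5 UMIs.

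As a description over 24 sums of cells (12 populations in each of 2 libraries, which share libraries and free RNA), levels on the log2(CPM + 10) scale were compared across genes. Among the 9 genes, Serping1 was most like C1s1 (Pearson's r = 0.93) and C1ra (0.89), and C3 most like Cfb (0.81). C4b had r = 0.61 with Cd59a and 0.41 with Cfi. Among all genes, the most like C4b was Cdh19 (0.83), a cadherin of Schwann cells, followed by Pitrm1 (0.83) and Prkce (0.80). Cfi was at 20.1 CPM in Serpina3n-high Dox-RPE cells and at most at 3.55 CPM in the other sums. Its values of r, also that with C4b, thus rest mainly on that sum, and nothing is read from them. Gm12802, Madcam1 and E2f6 (each 0.90) were the most like Cfi. For Serping1 these were Nbl1, Lum and Pdlim2 (each 0.96), for C1s1 Nfatc4 (0.96), Ddr2 and Antxr1 (0.95 each), and for C1ra P3h3 (0.96), Col6a1 and B3gnt9 (0.95 each). Steap3 (0.91), Emilin2 and Ssc5d (0.90 each) were the most like C3, and Cd109 (0.96), Twist2 (0.93) and Fbln2 (0.92) the most like Cfb. Tspan15 (0.90), Gstk1 and Txndc9 (0.89 each) were the most like Cd59a, and Dact2, Anxa8 and Hmcn2 (0.88 each) the most like Cd55.

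Other complement genes were taken as a list of 49, of which 17 reached 50 CPM in a population and 2 had no UMI. In RPE cells as a whole, 6 of the 49 passed the limits, and 1 of them, C1qb, was called, as lower in Dox than in control, against 0.433% of all genes. C1qb, a chain of C1q, was at 21.2 CPM in control RPE and 2.85 CPM in Dox-RPE, a log2 ratio of -2.89, and passed the limit only through control RPE. It was also called lower in Serpina3n-low cells, Dox over control (-2.70, against 0.432% of genes), and in Serpina3n-high over Serpina3n-low control cells (-3.29, on 1 UMI, against 7.11%). The chains C1qa and C1qc were lower in Dox-RPE too, but missed the limit of 20 CPM. C1qa had 17.6 CPM over all control RPE cells against 2.05 CPM in Dox-RPE, and C1qc 16.8 against 1.73 CPM. Outside the RPE, C1qa and C1qb were called lower in Dox in the Snhg7os-led cluster and in NK or T-like cells. In melanocyte-like cells C1qa was at 35.8 CPM (29.1 to 43.7) in Dox against 25.8 CPM (21.8 to 30.3) in control. C1qb was there at 39.9 CPM (32.7 to 48.2) against 32.9 CPM (28.4 to 37.9), and C1qc at 30.7 against 29.8 CPM. The intervals of the libraries overlapped for each chain. C1q is made by macrophages, and C1qb was at 1835 and 1299 CPM in macrophage-like cells. The macrophage markers in RPE cells summed to 365 CPM in control RPE and 186 CPM in Dox-RPE, all 12 with a UMI, and their part in this result was not tested.

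Clu, whose product binds the terminal complex, was at 8549 and 8901 CPM in Serpina3n-low control RPE and Dox-RPE cells and at 13421 and 14172 CPM in Serpina3n-high ones. Its log2 ratio of Serpina3n-high over Serpina3n-low cells was 0.65 in control and 0.67 in Dox, under 2-fold. In melanocyte-like cells Clu was at least 2-fold higher in Dox, at 3654 CPM against 1018 CPM, where 3.48% of genes were called higher. The 10 RPE markers summed to 28698 CPM in Dox and 9019 CPM in control in those cells, and their part in this was not tested. Clu was also called higher in Schwann-like cells, at 1591 CPM in Dox against 491 CPM in control (log2 1.70, 1.29 to 2.11), where 1.69% of genes were called higher and the RPE markers summed to 8613 and 6491 CPM.

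C2, the partner of C4 in the classical convertase, was at 20.5 and 11.4 CPM in Serpina3n-low control RPE and Dox-RPE cells and at 33.1 and 34.5 CPM in Serpina3n-high ones. Its log2 ratio within the Dox library was 1.60, the 1 call among the 6 other complement genes that passed the limits there, against 2.30% of all genes. It passed only through the Serpina3n-high cells. Vtn, Cr1l and C1qbp were not called in any RPE comparison. Outside the RPE, C2 was called lower in Dox in NK or T-like cells (against 1.88% of genes), endothelial-like cells (1.29%) and Sfrp4-led fibroblast-like cells (1.9%). Vtn was called lower in these Sfrp4-led cells and in the Cxcl10-led cluster (0.486%).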

How the data were processed

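Single-cell 5′ RNA libraries (10x Genomics) of 2 pooled samples, control and Dox, were analysed. Per the file headers, the authors used Cell Ranger 4.0.0 (on mm10, per their methods), and they deposited raw UMI counts for each gene and cell. A cell was kept if its UMIs exceeded 500, its genes lay between 200 and 6000, its complexity (the ratio of log10 genes to log10 UMIs) exceeded 0.8 and mitochondrial UMIs made up less than 0.2 of the total. The libraries were integrated (SCTransform, Seurat 5.3.0, R 4.3.3), with the complement genes taken out of the 3000 features (2978 left), and clusters were drawn on 40 principal components (resolution 0.1). A cluster was named when at least 3 markers of a type were at 50 CPM and 4-fold above the other cells and at least 1 was among its 10 leading genes. Doublets were removed only by the limit on genes, and Scrublet (scanpy 1.11.5) by its own threshold called 1941 control cells and 0 Dox cells. UMIs were summed per population and library (Python 3.11.15, scipy 1.17.1). The calculation was tested on simulated data. All 9 members were described in full, with some of the other complement genes at 50 CPM or more and the 3 genes most like each member. The members, gene lists and naming rule were chosen with earlier results of these data known. Gene positions are those of GENCODE vM21, since the annotation version is not given in the sources used here. Whether counting used strand was likewise not given, and Gm16567 and Gm16083 lie antisense to C1s1 and Cd55. Depth limits all values, since a group of 15 cells held 452790 UMIs. Intervals cover counting error only. Some genes are not reported here.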

Additional observations from a re-analysis of the deposited data

How the results depend on the processing

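No paired analysis was possible because each condition had 1 library, so that the groups shared fewer than 2 replicate numbers, and no library could be left out. Of the counts of genes under other settings, 134 stayed within 1.5 times and 50 moved. Of the log2 ratios of single genes, 256 stayed, 57 moved and 2 that had passed 2-fold changed sign. Both were of Serping1, which went to 0.20 in Serpina3n-high over Serpina3n-low Dox-RPE cells with fibroblast markers below 2000 CPM, and to 0.40 in Serpina3n-high cells, Dox over control, with the highest doublet scores left out. Ratios under 2-fold of C1ra, C1s1, Cd59a and Serping1 also changed sign under some settings. The C4b log2 ratio ranged from 1.19 to 2.08 in RPE cells (Dox over control), from 3.55 to 4.0 in Serpina3n-high over Serpina3n-low cells in Dox and from 1.92 to 3.17 in control, and from 0.63 to 1.92 in Serpina3n-high cells (Dox over control). The counts of genes that moved were as follows. In Serpina3n-high cells, Dox over control, the count higher fell from 2 to 1 with 5 or 20 Rpe65 UMIs, fibroblast markers below 2000 CPM, a Serpina3n limit of 500 or 2000 CPM, no limit on genes, CPM averaged over cells, or limits of 100 UMIs and 50 CPM, and to 0 with thinned cells. There the count lower fell from 1 to 0 with 5 or 20 Rpe65 UMIs, the RPE-like cluster only, fibroblast markers below 2000 CPM, a Serpina3n limit of 2000 CPM, no limit on genes, thinned cells, and without the control cell with most Serping1 UMIs. Within Dox, Serpina3n-high over Serpina3n-low, the count higher fell from 2 to 1 with 5 Rpe65 UMIs, a Serpina3n limit of 500 CPM, no limit on genes, thinned cells, CPM averaged over cells, or 100 UMIs and 50 CPM, and rose to 4 with no filter. The count lower went from 1 to 2 with 5 Rpe65 UMIs and to 0 in the RPE-like cluster, with fibroblast markers below 2000 CPM and without the highest doublet scores. Within control, the count higher went from 1 to 2 with a Serpina3n limit of 500 or 2000 CPM or without the highest doublet scores, to 3 with no filter, and to 0 with thinned cells or 100 UMIs and 50 CPM. The count lower rose from 0 to 1 with 5 or 20 Rpe65 UMIs, in the RPE-like cluster, with a Serpina3n limit of 2000 CPM, without the highest doublet scores and without that control cell. In RPE cells, Dox over control, no filter gave 2 higher and 1 lower, and 100 UMIs and 50 CPM gave 0 higher. In Serpina3n-low cells no filter gave 2 lower. Over the other cell types no filter gave 8 higher and 8 lower, thinned cells and marker gates gave 2 lower, and CPM averaged over cells 0. With marker gates, 3 genes in place of 6 were highest in fibroblast-like cells of Dox. Raised limits and thinning test fewer genes by construction, and otherwise the cause was not tested. The 15 Serpina3n-high control cells limit every comparison that uses them.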
